A study of Mus musculus with 14 samples.

Results

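The pericyte and smooth muscle genes described here are Rgs5, Pdgfrb, Notch3, Cspg4, Acta2, Tagln, Myh11, Cnn1, Mylk and Des. These 10 of the 42687 genes in the count table were chosen by symbol as genes of mural cells, the cells that wrap blood vessels, and all 10 were found. RNAseq was done on RPE (retinal pigment epithelium) cells of 14 male mice at 3 months of age, with the cells of both eyes of a mouse pooled into 1 library. The libraries form 3 sets, each with KO mice of its own, and no library is in more than 1 set. There were 3 KO and 3 WT (C57BL/6J) mice in the WT set, 2 of each genotype in the Ctrl set (KO and Ctrl), and again 2 of each in the CreCtrl set (KO and CreCtrl). All KO mice are Best1-Cre+/-;Clic4f/f, so that Cre, driven by the promoter of the RPE gene Best1, deletes the floxed Clic4 alleles. Ctrl mice (Clic4f/f) carry the floxed alleles without Cre, CreCtrl mice (Best1-Cre+/-) carry Cre without floxed alleles, and WT mice carry neither. Control genotype and set go together and cannot be told apart.

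Cre was directed to the RPE and not to mural cells, which lie in the choroid under the RPE. The RPE was shaken off RPE-choroid-sclera cups after trypsin, so cells of the choroid can enter a library. Levels are given as CPM, the counts of a gene scaled to the size of its library by TMM over all 14 libraries. Log2 fold changes are KO over the controls of the same set, fitted with edgeR (quasi-likelihood, p adjusted by Benjamini-Hochberg over all genes tested), each with an approximate standard error (SE). A gene was called where the adjusted p was under 0.05 and the fold change above 1.5. Between libraries of a set the p-values measure the spread between mice.

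The libraries held 9828293 to 32384166 counts. Clic4, the targeted gene, lay at 17.9 to 33.1 CPM in KO and 218 to 230 CPM in WT libraries of the WT set. For the Ctrl set its levels were 9.78 and 33.9 CPM in KO against 62.1 and 71.4 CPM in controls. Those of the CreCtrl set were 13.7 and 30.5 against 86.5 and 108 CPM. Each KO library was thus below every control of its set. Such a separation also held for 24.5% (WT), 22.7% (Ctrl) and 34.9% (CreCtrl) of all genes tested. Clic4 was called lower against WT (log2 fold change -3.32, adjusted p = 3.33e-05 from edgeR) and CreCtrl (-2.16, adjusted p = 0.0132 from edgeR). Against Ctrl its log2 fold change of -1.61 (SE 0.58) was not called (adjusted p = 0.333 from edgeR). The 10 RPE markers (Rpe65, Best1, Rlbp1, Ttr and others) were at 1.19 CPM or more in every library. The WT libraries stood apart from the other controls, with summed RPE markers of 15026 to 22287 CPM against 45469.7 to 56208 CPM in the Ctrl and CreCtrl libraries, and summed fibroblast markers of 7792 to 7978 CPM against 1254 to 2728 CPM. Ctrl replicate 2 stood apart from Ctrl replicate 1 in its smooth muscle genes, as described below. Fold changes without these libraries are given below where they move.

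Mural cells are of 2 main kinds. Pericytes sit on capillaries, depend on PDGF-B from the endothelium acting on the receptor PDGFRB, and keep contractile proteins low. Smooth muscle cells ring arteries and arterioles, carry NOTCH3, and contract through smooth muscle actin (ACTA2), smooth muscle myosin (MYH11) and the proteins that bind or switch them. The choroid holds both, around its arteries and around the choriocapillaris that supplies the RPE.

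Rgs5, which encodes a regulator of G-protein signaling and is a classical pericyte marker, was the mural gene with the highest CPM in the WT mice. Rgs5 (ENSMUSG00000026678, chromosome 1 of GRCm38, 169655501 to 169695813, plus strand) was at 1844, 1788 and 1534 CPM in the WT libraries and at 83.7, 31.5 and 47.7 CPM in the KO libraries of the WT set. It was at 273 and 164 CPM in the Ctrl and 11.1 and 43.9 CPM in the matched KO libraries, and at 200 and 490 CPM in the CreCtrl and 11.9 and 51.9 CPM in the matched KO libraries. In all 3 sets every KO library was below every control. Rgs5 fell, with log2 fold changes of -5.12 against WT (SE 0.36, adjusted p = 4.16e-05 from edgeR) and -3.45 against CreCtrl (SE 0.72, adjusted p = 0.0257 from edgeR). The log2 fold change of -2.99 against Ctrl (SE 0.69) was not called (adjusted p = 0.144 from edgeR). In bulk RNA, fewer cells of a type and less RNA per cell cannot be told apart.

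Pdgfrb, the receptor through which PDGF-B recruits and keeps pericytes, was also lower in the KO libraries, most of all against WT. Pdgfrb (ENSMUSG00000024620, chromosome 18, 61045150 to 61085061, plus strand) was at 339, 241 and 421 CPM in WT and 46.7, 40.9 and 33.9 CPM in the matched KO libraries. The Ctrl libraries had 92.0 and 50.7 CPM and their KO libraries 27.6 and 44.6 CPM, and the CreCtrl libraries had 77.8 and 102 CPM and their KO libraries 27.6 and 41.3 CPM. The 7 KO libraries spanned 27.6 to 46.7 CPM in all sets, whereas the controls spanned 50.7 to 421 CPM. Pdgfrb fell, with log2 fold changes of -3.19 against WT (SE 0.23, adjusted p = 4.38e-05 from edgeR) and -1.42 against CreCtrl (SE 0.25, adjusted p = 0.0143 from edgeR), and its log2 fold change of -0.98 against Ctrl (SE 0.40) was not called (adjusted p = 0.414 from edgeR) and ran from -1.37 to -0.47 when 1 library was left out.

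Notch3, a receptor of the Notch family that is needed for arterial smooth muscle to mature, behaved likewise. Notch3 (ENSMUSG00000038146, chromosome 17, 32120820 to 32166852, minus strand) was at 94.8, 81.4 and 98.3 CPM in WT and 11.4, 11 and 6.35 CPM in the matched KO libraries. It was at 29.2 and 87.6 CPM in Ctrl against 2.80 and 6.68 CPM in KO, and at 18 and 25.9 CPM in CreCtrl against 9.38 and 4.62 CPM in KO. No KO library reached a control of its set. Notch3 fell, with log2 fold changes of -3.40 against WT (SE 0.23, adjusted p = 3.82e-05 from edgeR) and -1.69 against CreCtrl (SE 0.36, adjusted p = 0.0266 from edgeR), the latter not called without CreCtrl replicate 2 (log2 fold change -1.42). Against Ctrl its log2 fold change of -3.62 (SE 0.69) was not called (adjusted p = 0.118 from edgeR).

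Cspg4, which encodes the proteoglycan NG2 of pericytes, did not share this pattern. Cspg4 (ENSMUSG00000032911, chromosome 9, 56865033 to 56899870, plus strand) was at 68.4, 62.7 and 71.3 CPM in WT and 86.1, 84.5 and 74.7 CPM in the matched KO libraries. The Ctrl libraries had 56.2 and 66.0 CPM and their KO libraries 81.0 and 89.0 CPM, and the CreCtrl libraries 74.6 and 71.2 CPM and their KO libraries 75.1 and 88.8 CPM. Each KO library was above every control of its set in these CPM, by little in the CreCtrl set. By library size alone this separation held in the Ctrl set and not in the WT and CreCtrl sets. The log2 fold changes of 0.13 against WT (SE 0.12), 0.48 against Ctrl (SE 0.22) and 0.14 against CreCtrl (SE 0.16) were not called. Scaled by library size alone, they turned to -0.11 against WT and -0.089 against CreCtrl, and without the second KO library of the CreCtrl set the last was -0.010.

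**Figure D1:**
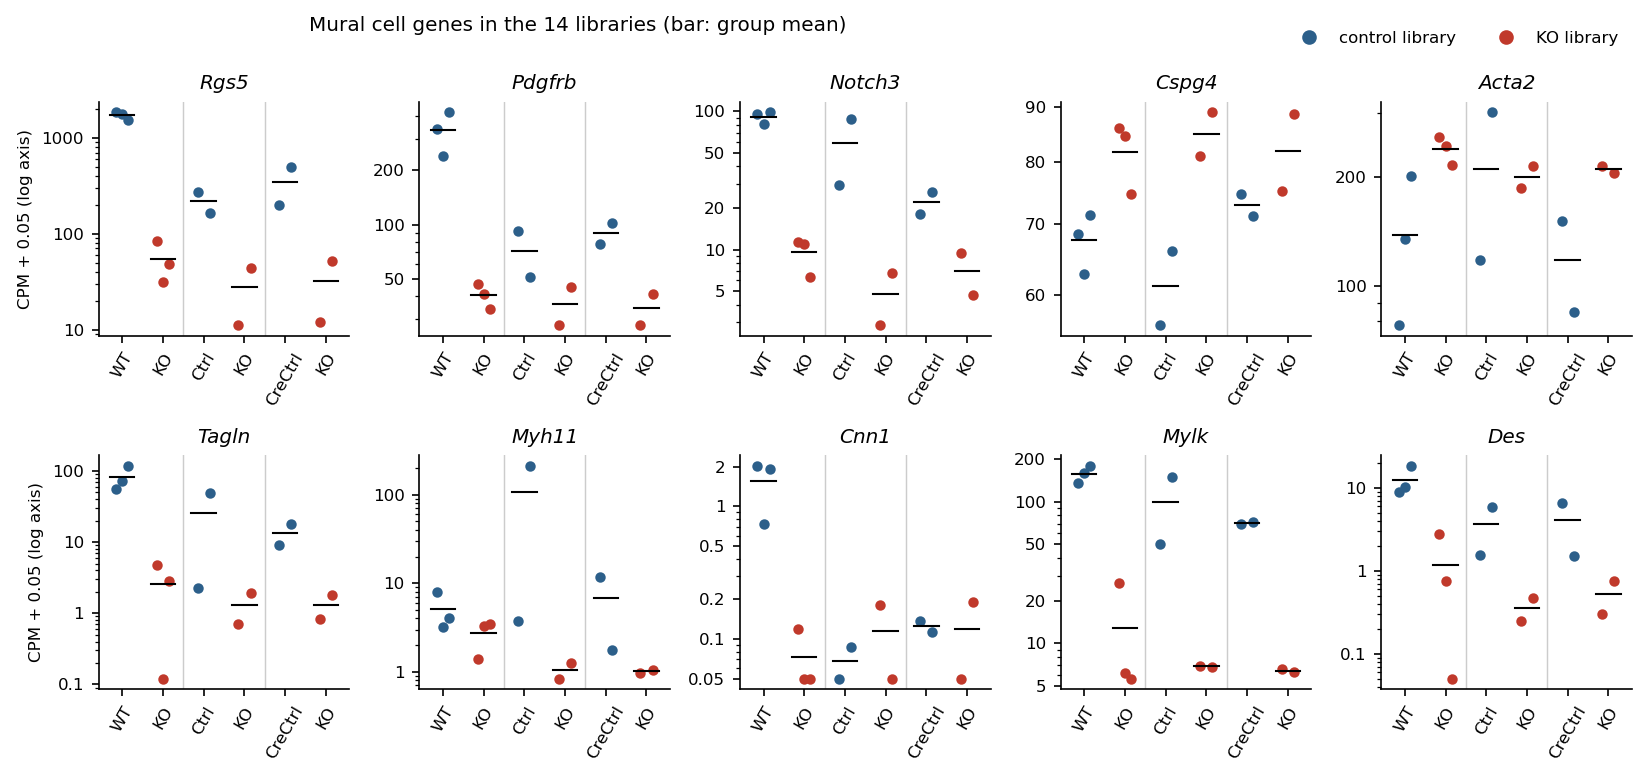
Level of each of the 10 mural genes in the 14 libraries, as CPM plus 0.05 on a log axis whose range differs between panels. Points are libraries, blue for controls and red for KO, horizontal bars are group means, and grey lines part the WT, Ctrl and CreCtrl sets from left to right. Rgs5 lies at 1534 to 1844 CPM in WT and 31.5 to 83.7 CPM in the matched KO libraries, while Acta2 lies at 186 to 258 CPM in all 7 KO libraries.

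Among the smooth muscle genes Acta2 went its own way. Acta2 (ENSMUSG00000035783, chromosome 19, 34241090 to 34255590, minus strand) encodes smooth muscle α-actin, the actin of the contractile filament. It was at 78.0, 135 and 201 CPM in WT and at 258, 243 and 216 CPM in the matched KO libraries, at 118 and 301 CPM in Ctrl against 186 and 213 CPM in KO, and at 151 and 85 CPM in CreCtrl against 215 and 204 CPM in KO. In these CPM the KO libraries lay above every control in the WT and CreCtrl sets and between the 2 controls in the Ctrl set. They spanned 186 to 258 CPM, a narrower range than the 78.0 to 301 CPM of the controls. By library size alone the separation did not hold in the WT set. There WT replicate 3 had 2938 of 12363580 counts, and the highest KO library had 3793 of 16040454. The log2 fold changes were 0.64 against WT (SE 0.30, adjusted p = 0.132 from edgeR), -0.07 against Ctrl (SE 0.45, adjusted p = 0.985 from edgeR) and 0.79 against CreCtrl (SE 0.26, adjusted p = 0.0734 from edgeR), none of them called. The 95% interval (normal approximation) ran from 0.06 to 1.22 against WT, from -0.94 to 0.81 against Ctrl and from 0.28 to 1.31 against CreCtrl. With so few libraries this approximation is too narrow. Against WT it leaves out 0, although the unadjusted p from edgeR was 0.0604. Acta2 was called higher against WT without WT replicate 3 (1.04) and against CreCtrl without CreCtrl replicate 1 (1.26), and the Ctrl value went from -0.58 without Ctrl replicate 1 to 0.75 without Ctrl replicate 2.

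Tagln, whose product transgelin (SM22) binds actin filaments in smooth muscle, was the opposite case. Tagln (ENSMUSG00000032085, chromosome 9, 45929619 to 45936058, minus strand) was at 55.1, 73.2 and 118 CPM in WT and at 4.76, 0.0699 and 2.81 CPM in the matched KO libraries. The second of these KO libraries held 1 Tagln count, under the floor of 3 counts. Tagln was at 2.24 and 48.5 CPM in Ctrl against 0.652 and 1.85 CPM in KO, and at 8.94 and 17.9 CPM in CreCtrl against 0.785 and 1.74 CPM in KO. Every KO library was below every control of its set, although Ctrl replicate 1 lay close to the KO libraries. Tagln fell, with log2 fold changes of -5.14 against WT (SE 0.79, adjusted p = 0.00129 from edgeR) and -3.42 against CreCtrl (SE 0.52, adjusted p = 0.00946 from edgeR), and -4.33 against Ctrl (SE 1.45) was not called (adjusted p = 0.293 from edgeR).

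Mylk, which encodes the kinase that starts contraction by phosphorylating the myosin light chain, was lower in the KO libraries of each set. Mylk (ENSMUSG00000022836, chromosome 16, 34745210 to 35002420, plus strand) was at 135, 161 and 179 CPM in WT and at 26.6, 6.15 and 5.55 CPM in the matched KO libraries, the first of which was the highest of the 7 KO libraries. It was at 50.2 and 150 CPM in Ctrl against 6.85 and 6.74 CPM in KO, and at 69.8 and 71.6 CPM in CreCtrl against 6.53 and 6.15 CPM in KO. KO libraries and controls did not overlap in any set, and 6 of the 7 KO libraries lay between 5.55 and 6.85 CPM. Mylk fell, with log2 fold changes of -3.77 against WT (SE 0.57, adjusted p = 0.00117 from edgeR) and -3.51 against CreCtrl (SE 0.16, adjusted p = 0.00131 from edgeR), and -3.88 against Ctrl (SE 0.57) was not called (adjusted p = 0.106 from edgeR). Without the first KO library the value against WT was -4.84.

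Des encodes desmin, the intermediate filament of muscle cells. Des (ENSMUSG00000026208, chromosome 1, 75360329 to 75368579, plus strand) was at 8.78, 10.2 and 18.4 CPM in WT and at 2.72, 0.699 and 0 CPM in the matched KO libraries. It was at 1.51 and 5.80 CPM in Ctrl against 0.196 and 0.418 CPM in KO, and at 6.59 and 1.46 CPM in CreCtrl against 0.248 and 0.695 CPM in KO. All KO libraries were below the controls of their set, at levels where single libraries weigh. Des fell, with log2 fold changes of -3.59 against WT (SE 1.09, adjusted p = 0.0326 from edgeR) and -3.10 against CreCtrl (SE 0.84, adjusted p = 0.0487 from edgeR), and -3.54 against Ctrl (SE 0.97) was not called (adjusted p = 0.194 from edgeR). The call against WT was lost without WT replicate 1 (-3.79), 2 (-3.72) or 3 (-3.18) or without KO replicate 2 (-3.22). The call against CreCtrl was lost without CreCtrl replicate 1 (-1.65) or KO replicate 1 (-2.52).

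Myh11 and Cnn1, the genes held to be most restricted to differentiated smooth muscle, were low in most libraries. Myh11 (smooth muscle myosin heavy chain, ENSMUSG00000018830, chromosome 16, 14194535 to 14291372, minus strand) was at 7.88, 3.18 and 4.04 CPM in WT against 1.36, 3.21 and 3.41 CPM in KO, which overlap. It was at 3.69 and 212 CPM in Ctrl against 0.783 and 1.19 CPM in KO, and at 11.7 and 1.71 CPM in CreCtrl against 0.909 and 1.01 CPM in KO. The log2 fold changes were -1.06 against WT (SE 0.65, adjusted p = 0.257 from edgeR), -6.75 against Ctrl (SE 1.90, adjusted p = 0.203 from edgeR) and -2.84 against CreCtrl (SE 0.82, adjusted p = 0.0559 from edgeR), none of them called. The value against CreCtrl was called without CreCtrl replicate 2 (-3.66) or KO replicate 1 (-2.72), and was -0.88 without CreCtrl replicate 1. Against WT it was -0.59 without WT replicate 1 and -0.70 without KO replicate 1. Cnn1 (calponin, which restrains actomyosin, ENSMUSG00000001349, chromosome 9, 22099216 to 22109630, plus strand) had 24, 8 and 27 counts in WT and 1, 0 and 0 counts in KO, a ratio of 67.6 in counts scaled to library size with an exact 95% counting interval of 11.7 to 2714. It was called lower against WT (adjusted p = 0.0239 from edgeR), but not without WT replicate 1 or 3 or KO replicate 2 or 3, where the fitted log2 fold change was -5.48, -5.50, -5.18 and -5.17. In the other sets Cnn1 had 0 to 4 counts in every library and did not pass the filter of their own fits, and no fold is given there.

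Over the 10 genes, 7 were called lower and 0 higher against WT (Rgs5, Pdgfrb, Notch3, Tagln, Cnn1, Mylk and Des), where 17.6% of all genes tested were called lower and 14.1% higher. DESeq2 called 7 as well, and 34.5% of all genes in either direction. The median log2 fold change of the 10 was -3.50, and that of all genes tested was -0.08. Against CreCtrl 6 of the 9 tested were called lower and 0 higher, with 12.2% of all genes called lower and 3.46% higher, and DESeq2 called 8, and 21.5% of all genes in either direction. The 6 were Rgs5, Pdgfrb, Notch3, Tagln, Mylk and Des, and the median of the 9 was -2.84 against -0.02 for all genes. Against Ctrl edgeR called 0 of the 9 tested and 0% of all genes in either direction, although 6 of the 9 and 1846 genes in all had an unadjusted p under 0.05, and DESeq2 called 6 of the 9 and 1111 genes (7.27%). Without Ctrl replicate 1, edgeR called 3.17% of all genes and 4 of these against Ctrl (Notch3 -4.19, Tagln -5.25, Myh11 -7.71 and Mylk -4.45 on the log2 scale). The median of the 9 against Ctrl was -3.54, and that of all genes was 0.01.

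In the WT set the KO range was wholly below that of the controls for 7 of the 10 genes, as for 24.5% of all genes tested, and wholly above it for Acta2 and Cspg4, as for 28.6%. In the Ctrl set 8 of the 9 tested except Acta2 did not overlap, 7 of them with KO below (22.7% of all genes) and Cspg4 with KO above (18.3%). In the CreCtrl set KO lay below for 7 of the 9 (34.9% of all genes) and above for Acta2 and Cspg4 (37.2%). These ranges are of CPM scaled by TMM over all 14 libraries. By library size alone KO and controls overlapped for Acta2 in the WT set and for Cspg4 in the WT and CreCtrl sets. With 3 mice against 3 a two-sided exact permutation test of a single gene cannot go below 0.1, and with 2 against 2 not below 0.333.

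With the 3 sets fitted together and set as a term (7 KO against 7 controls), 7 of the 9 tested were called lower and 0 higher, where 16.8% of all genes were called lower and 11% higher. The log2 fold changes were -4.40 for Tagln (SE 0.71), -4.01 for Rgs5 (SE 0.50), -3.69 for Mylk (SE 0.35), -3.39 for Des (SE 0.69), -2.94 for Notch3 (SE 0.37), -2.93 for Myh11 (SE 1.03) and -2.01 for Pdgfrb (SE 0.33). Acta2 was not called, at 0.53 (SE 0.24, adjusted p = 0.102 from edgeR), nor was Cspg4, at 0.27 (SE 0.09), whose adjusted p of 0.0235 from edgeR passed but whose fold change did not. Without the WT set 6 of the 9 were called (6.64% of all genes in either direction), with Pdgfrb at -1.22, and without the Ctrl set 8 (32.8% of all genes). Without Ctrl replicate 2 alone 8 were called as well (30.7% of all genes), with Acta2 called higher at 0.74. The call of Myh11 (adjusted p = 0.0350 from edgeR) rested on a value that moved to -1.76 without Ctrl replicate 2 and to -1.73 without the Ctrl set, and was lost without the WT set (-4.81), without the CreCtrl set (-2.98) and when any of 7 libraries was left out: WT replicate 1, CreCtrl replicate 1 and 5 of the KO libraries, all but replicates 2 and 3 of the WT set, with log2 fold changes of -3.14 to -2.35. Library size alone as the scale moved the median of all genes to -0.32 against WT, -0.10 against Ctrl, -0.24 against CreCtrl and -0.23 over the 3 sets, and the calls over all genes to 1421 higher and 3580 lower against WT (2171 and 2716 with TMM), 176 and 2691 against CreCtrl (552 and 1946) and 688 and 3392 over the 3 sets (1641 and 2507).

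**Figure D2:**
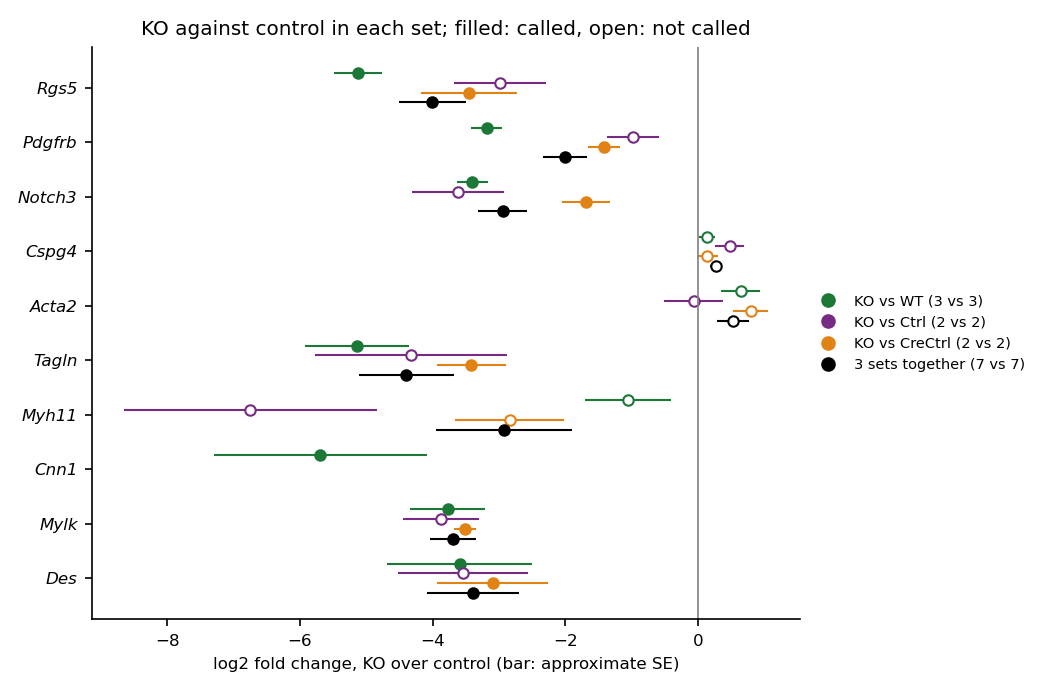
Log2 fold change of each mural gene, KO over control, in each set and with the 3 sets together, with bars of 1 approximate SE. Filled points were called and open points were not, and Cnn1 was tested in the WT set alone. Acta2 and Cspg4 lie at -0.07 to 0.79, the other genes at -6.75 to -0.98.

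The sets were also compared with each other for the size of the KO effect. The difference of the KO effect between the WT and the Ctrl set was called for 1 of the 10 genes, Pdgfrb, and for 5.15% of all genes tested, and DESeq2 called 2 of the 10 and 9.23% of all genes. Its log2 fold change was 2.06 lower in the WT set (difference -2.06, SE 0.44, adjusted p = 0.0210 from edgeR). The call was lost without KO replicate 2 of the WT set (-2.07), Ctrl replicate 2 (-1.77) or KO replicate 2 of the Ctrl set (-1.66), and 2 of the 10 genes were called without Ctrl replicate 1 or CreCtrl replicate 2. Between the WT and CreCtrl sets edgeR called 0 of the 10 (1.49% of all genes), with 3 at an unadjusted p under 0.05 and 1 called by DESeq2 (5.1% of all genes). Leaving out Ctrl replicate 1 or 2, which enter this fit through the shared spread, made the count 1. Between the Ctrl and CreCtrl sets edgeR called 0 of the 10 and 0% of all genes, with 2 of the 10 and 1545 genes at an unadjusted p under 0.05, and DESeq2 called 0 of the 10 and, over all genes, 14 higher and 101 lower (0.651%).

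Acta2 was compared with each other mural gene inside the same library, as log2 of the ratio of CPM plus 0.5. The ratio of Acta2 to Tagln was 0.50 to 0.88 in WT and 5.62 to 8.74 in the matched KO libraries. It was 5.44 and 2.62 in Ctrl replicates 1 and 2 against 6.51 and 7.34 in KO, and 4.0 and 2.22 in CreCtrl replicates 1 and 2 against 6.52 and 7.39 in KO. The KO libraries were higher in every set. The mean difference over the sets, weighted by their size, was 4.53, with p = 0.00278 by a two-sided exact permutation of labels within sets, the smallest p that its 720 arrangements can give. It stayed between 4.04 and 4.98 when any 1 library was left out. Tagln, whose KO libraries lay below every control of their set, was picked for this ratio with earlier results of these data known. The p therefore repeats that separation and is no independent support.

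Against the other genes the same ratio is given without a test. Acta2 to Rgs5 was -4.55 to 0.88 in the 7 controls and 1.62 to 4.12 in the 7 KO libraries, so that in 6 of the 7 controls Rgs5 took more reads than Acta2 and in every KO library fewer. Acta2 to Mylk was -0.78 to 1.23 in controls and 3.25 to 5.19 in KO, to Notch3 -0.28 to 3.03 and 4.41 to 5.82, to Des 3.08 to 5.88 and 6.33 to 8.76, and to Myh11 0.51 to 5.47 and 5.79 to 7.25. For these 5 genes and Tagln the KO libraries lay above all 7 controls. The share of all genes whose ratio to Acta2 separates in this way was not computed. The count is therefore no result about mural genes as such. Acta2 to Pdgfrb was -2.11 to 2.56 in controls and 2.24 to 2.94 in KO, and Ctrl replicate 2 lay within the KO range. The ratio to Cnn1 overlapped too, at 4.99 to 9.13 in controls and 8.21 to 8.93 in KO, with Ctrl replicate 2 the highest of all, as did the ratio to Cspg4, at 0.19 to 2.18 in controls and 1.19 to 1.58 in KO.

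**Figure D3:**
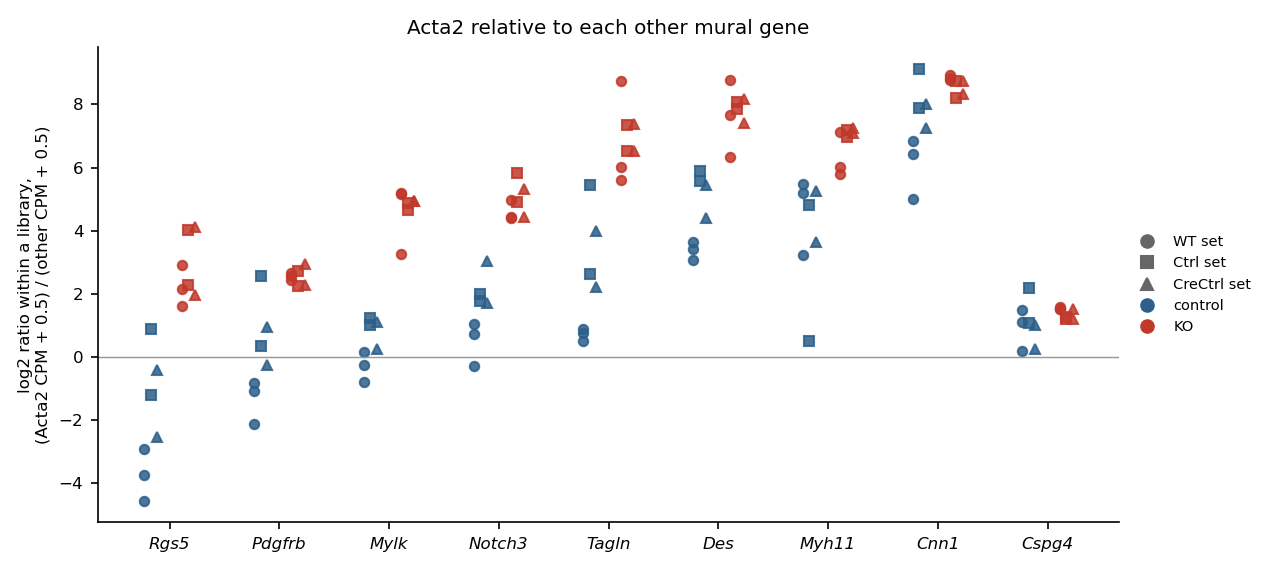
Log2 ratio of Acta2 to each other mural gene within a library, from CPM plus 0.5, with controls in blue, KO in red and the set given by the shape of the point. For Tagln the KO libraries lie at 5.62 to 8.74 and the controls at 0.50 to 5.44, while for Cspg4 the 2 groups overlap.

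Per length of exon, which allows levels of different genes to be set side by side, Rgs5 led in WT at 379 ± 36.3 CPM per kb (SD, n = 3). Acta2 came second there at 62.9 ± 28.1, a level that overlapped those of Pdgfrb (60.9 ± 16.4) and Tagln (41.2 ± 16.2), and Cnn1 and Myh11 came last (0.549 ± 0.259 and 0.663 ± 0.329 CPM per kb), overlapping each other. In the KO libraries of the WT set Acta2 led at 109 ± 9.69 CPM per kb (SD, n = 3), above Rgs5 at 11.9 ± 5.87, which overlapped Pdgfrb at 7.39 ± 1.17, as Pdgfrb did Cspg4 at 6.85 ± 0.520. Acta2 also led in the KO libraries of the Ctrl and CreCtrl sets, at 90.9 ± 8.84 and 95.4 ± 3.25 CPM per kb (SD, n = 2 each), where Cspg4, Pdgfrb and Rgs5 followed at 6.04 to 7.12 and overlapped one another. In the Ctrl and CreCtrl controls the first place was not settled, since Acta2 and Rgs5 overlapped in both groups.

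Acta2 made up 6.30% to 15.2% of the summed CPM per kb of the 10 genes in WT, 37.0% and 51.6% in Ctrl, 20.3% and 46.0% in CreCtrl and 74.0% to 85.7% in the 7 KO libraries. The KO libraries were above every control. This share also depends on the other genes in the sum. Rgs5 alone made up 55.8% to 71.9% in WT and 5.15% to 11.6% in the matched KO libraries. In the Ctrl set Acta2 itself did not rise, at a mean of 95.4 CPM per kb in the controls and 90.9 CPM per kb in KO. The sum itself was 564 to 605 CPM per kb in WT and 145 to 266 CPM per kb in the other controls, against 100 to 159 CPM per kb in KO.

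**Figure D4:**
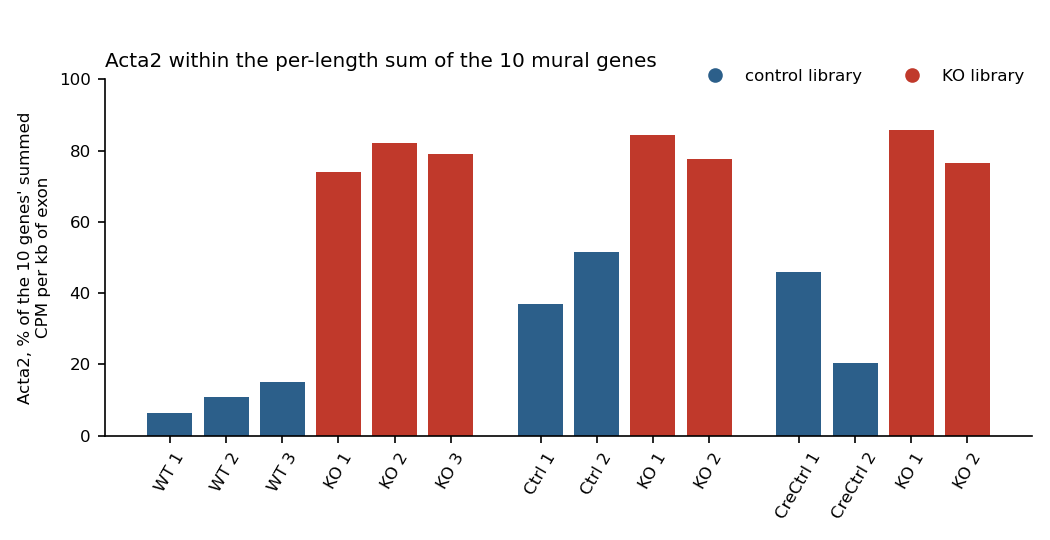
Share of Acta2 in the summed level of the 10 mural genes, as a percentage of CPM per kb of exon, in each of the 14 libraries. Acta2 makes up 74.0% to 85.7% in the 7 KO libraries (red) and 6.30% to 51.6% in the 7 controls (blue).

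The promoters of the genes are given as sequences, and whether they bear on the contrast between Acta2 and the rest was not tested. The search cannot set Acta2 against Tagln or Myh11, whose promoters were not searched. RefSeq (GRCm38.p6) starts were at hand for 7 of the 10 genes, with no entry used for Tagln, Myh11 and Pdgfrb. The 250 bases before each start were searched on both strands for the box bound by serum response factor, the factor that with myocardin drives contractile genes, spelled CCNNNNNNGG with at least 5 of the 6 inner letters A or T (a form that reads the same on both strands). It was found in 1 of the 7, that of Acta2, with 2 boxes beginning 84 and 34 bases before the start, and in 8.59% of all 32851 promoters searched. A single match among 7 promoters is too few to set apart from that share. The stretches below are the 250 bases before the start, 5′ to 3′ in the direction of the gene, with boxes in capitals. They lie on chr19:34255374-34255623 (minus strand) for Acta2, chr1:169655251-169655500 (plus) for Rgs5, chr9:22099003-22099252 (plus) for Cnn1 and chr9:56864854-56865103 (plus) for Cspg4, and were chosen as 2 genes that were not called (Acta2 and Cspg4) and 2 called lower against WT. The windows run past the outermost start that GENCODE gives these genes for Acta2, with 217 of the 250 bases inside the GENCODE gene, for Cspg4 (71 bases) and for Cnn1 (37 bases), and that of Mylk, searched but not shown, lies wholly inside its gene.
Acta2: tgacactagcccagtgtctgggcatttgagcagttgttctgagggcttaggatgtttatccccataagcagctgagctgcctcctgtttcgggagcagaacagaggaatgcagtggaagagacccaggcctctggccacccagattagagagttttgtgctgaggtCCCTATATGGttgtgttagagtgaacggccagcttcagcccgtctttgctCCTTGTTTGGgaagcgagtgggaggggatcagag
Rgs5: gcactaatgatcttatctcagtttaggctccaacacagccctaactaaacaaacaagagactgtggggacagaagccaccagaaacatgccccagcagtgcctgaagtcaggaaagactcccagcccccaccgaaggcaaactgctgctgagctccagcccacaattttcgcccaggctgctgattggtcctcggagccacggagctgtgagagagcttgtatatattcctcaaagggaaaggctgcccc
Cnn1: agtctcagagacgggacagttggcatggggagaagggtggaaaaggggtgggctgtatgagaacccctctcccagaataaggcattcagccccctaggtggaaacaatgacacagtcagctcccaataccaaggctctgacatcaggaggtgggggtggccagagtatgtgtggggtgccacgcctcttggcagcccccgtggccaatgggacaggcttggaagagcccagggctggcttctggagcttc
Cspg4: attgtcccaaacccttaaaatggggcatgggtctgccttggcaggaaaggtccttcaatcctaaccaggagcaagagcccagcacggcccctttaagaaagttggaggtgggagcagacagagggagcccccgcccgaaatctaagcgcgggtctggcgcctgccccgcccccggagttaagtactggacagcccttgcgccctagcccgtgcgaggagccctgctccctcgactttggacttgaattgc
A match is a stretch of letters and not a site, and windows without one say nothing beyond these 250 bases.

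Ctrl replicate 2 carried more smooth muscle RNA than Ctrl replicate 1, with Myh11 at 212 against 3.69 CPM (5693 against 56 counts), Tagln at 48.5 against 2.24, Acta2 at 301 against 118, Mylk at 150 against 50.2, Notch3 at 87.6 against 29.2 and Des at 5.80 against 1.51 CPM. Its Myh11 was the highest of the 14 libraries by far, the next being 11.7 CPM. Rgs5 (164 against 273 CPM) and Pdgfrb (50.7 against 92.0 CPM) were lower in the same library, and Cnn1 held 1 count. Against Ctrl without that library the log2 fold changes were -0.84 for Tagln and -1.90 for Myh11, in place of -4.33 and -6.75, and -2.63 for Notch3, -2.89 for Mylk and -2.28 for Des, in place of -3.62, -3.88 and -3.54. Rgs5 (-3.32 in place of -2.99) and Pdgfrb (-1.35 in place of -0.98) moved the other way.

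In sequence, Acta2 is close to the other muscle actins, and its reads may be shared with theirs. Acta1 and Actg2, named here for that reason and after their values were seen, were at 0 to 2.22 and 0 to 1.85 CPM. Actg1, a cytoplasmic actin, was at 1.73 to 5.79 CPM in the 4 libraries of the Ctrl set and at 130 to 267 CPM in the other 10, KO and controls alike. How reads that match several genes were counted is not given in the sources used here. Exons of Notch3, Tagln, Mylk and Des overlap exons on the other strand, by 488 bases with Gm17276, 108 with Pcsk7 and 1241 with Gm48529, 548 with E130310I04Rik and 224 with Gm21691, and 220 with Gm15179. The strand setting of the counting is not given, so their reads may not be told apart.

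The genes with the most similar course over the 14 libraries were sought among the 14555 genes with a mean of at least 1 CPM, by the root mean square (RMS) difference of log2 CPM after centring each gene. These distances share the libraries and their composition and carry no test. For Acta2 they were Palld (palladin, an actin-binding protein), Clta and Fadd, at 0.26, 0.27 and 0.28 log2 units. For Tagln they were Myl9, the smooth muscle myosin light chain, at 0.80, Meox1 at 1.03 and Ptgir at 1.03. For Rgs5 they were Adamtsl3, Slit3 and Col6a2 at 0.26, 0.28 and 0.35, and for Notch3 Ahnak, Ehd2 and Slc38a2 at 0.45, 0.48 and 0.48. No mural gene was among them. Among the members themselves, Acta2 and Cspg4 were closest at 0.50, followed by Notch3 and Mylk at 0.75, and Acta2 and Tagln were the most distant pair at 2.97. When genes were centred within each set, Palld stayed first for Acta2 (0.17) and Myl9 for Tagln (0.73), while Dcn, a collagen-binding proteoglycan of fibroblasts, came first for Rgs5 (0.20) and Slco3a1 for Notch3 (0.41).

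Further pericyte genes were mostly lower as well. Of 12 such genes, 11 were tested against WT, 7 were called lower and 1 higher, with a median of -3.16. The 63.6% called lower stand beside 17.6% of all genes, and the 9.09% called higher are under the 14.1% of all genes. Foxs1, a transcription factor of pericytes, had 63 counts over the WT libraries and 0 over the KO libraries, Ebf1 (-5.17) and Ndufa4l2 (-4.72) were the next lowest, and Vtn, which the RPE also expresses, was called higher (1.75). Here and for the lists below, the lowest and highest genes named are those among the called. Against CreCtrl 7 of 10 were called lower and 0 higher (12.2% and 3.46% of all genes), and with the 3 sets together also 7 of 10 and 0 (16.8% and 11% of all genes). Against Ctrl edgeR called 0 genes of this and the following lists, as of all genes.

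Of the ligands, receptors and targets of the PDGF and Notch pathways, fewer were called. Of 16 genes, 6 were called lower and 1 higher against WT (median -0.73), and 3 and 0 against CreCtrl (median -0.51). The 37.5% called lower against WT stand beside 17.6% of all genes, while the 6.25% called higher (14.1% of all genes) and the 18.8% called lower against CreCtrl (12.2% of all genes) are near the background or under it. Hey1, a Notch target, was lowest of those called against WT (-3.01), followed by Notch4 (-2.20), a Notch receptor of endothelium, and Pdgfb (-1.85), the ligand of PDGFRB made by endothelium. Heyl, a further Notch target, was at 16.6 to 28.9 CPM in WT and 0 to 6.19 CPM in the matched KO libraries and was not called against WT. With the 3 sets fitted together Heyl was called lower (-2.29, SE 0.64). In that fit 7 of the 16 genes were called lower and 0 higher, beside 16.8% and 11% of all genes. Pdgfa, another PDGF ligand, was called higher against WT (0.60). The 3 called against CreCtrl were Pdgfb (-2.25), Notch4 (-1.59) and Hes1 (-0.96), a Notch target, and Hey1 was not called (-0.86).

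Contractile genes outside the 10 were called lower more often than higher. Of 19, 16 were tested against WT, 9 were called lower and 1 higher (median -1.17), and against CreCtrl 9 of 16 were called lower and 2 higher (median -0.79). Of all genes, 17.6% were called lower and 14.1% higher against WT, and 12.2% and 3.46% against CreCtrl. The 6.25% of this list called higher against WT are thus under the share of all genes. Myl9 (-4.92), Mustn1 (-4.61) and Synpo2 (-4.35) were the lowest against WT and were called lower against CreCtrl as well (-2.70, -3.31 and -2.47). The others called lower against WT were Tpm2 (-2.59) and Tpm1 (-2.53), tropomyosins, Smtn (-1.42, smoothelin), Flna (-1.10, filamin), Ppp1r12b (-1.09, a myosin phosphatase subunit) and Vcl (-1.03, vinculin). These 6 and Cald1, the gene of caldesmon, were picked after their values were seen, and Cald1 was called higher against CreCtrl (0.78). Lmod1, which encodes leiomodin, a nucleator of actin filaments in smooth muscle, was called higher against WT (1.82, SE 0.19) and CreCtrl (1.09, SE 0.23). Its level was 9.93 to 11.8 CPM in WT and 37.8 to 44.7 CPM in the matched KO libraries, which did not overlap. In the Ctrl set, however, it was at 35.6 and 77.7 CPM in the controls and 45.4 and 63.2 CPM in KO.

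Among 10 genes of serum response factor, myocardin and their targets, 6 of the 9 tested were called lower and 0 higher against WT (median -1.04), and 4 and 0 against CreCtrl (median -0.28). Beside this list and the next, 17.6% of all genes were called lower and 14.1% higher against WT, and 12.2% and 3.46% against CreCtrl. The lowest were Fhl2 (-4.88), Ccn2 (-4.86) and Ccn1 (-3.92), followed by the cofactor genes Mrtfb (-1.07) and Mrtfa (-1.04) and by Srf itself (-0.91). Against CreCtrl Fhl2 (-3.70), Ccn2 (-3.50), Ccn1 (-2.12) and Mrtfb (-0.73) were called lower. Of 12 nonmuscle relatives of the members (actins, calponins, transgelins, nonmuscle myosins and others), 11 were tested against WT, where 5 were called lower and 2 higher (median -0.57). Against CreCtrl 5 of 12 were called lower and 0 higher (median -0.14). The 18.2% of these relatives called higher against WT are near the 14.1% of all genes. Rgs16 (-3.78), Tagln2 (-2.85) and Vim (-2.21), the gene of vimentin, were the lowest against WT, with Myh9 (-1.51) and Myh10 (-1.07) of nonmuscle myosin also lower, and Cspg5 (2.25) and Cnn3 (1.07), relatives of Cspg4 and Cnn1, were called higher.

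Fibroblast and endothelial markers moved with the mural genes. Beside the counts of this and the next paragraph, 17.6% of all genes were called lower and 14.1% higher against WT, and 12.2% and 3.46% against CreCtrl. Fibroblast markers were called lower for 10 of 10 against WT and 9 of 10 against CreCtrl, with sums of 127 to 763 CPM in the 7 KO libraries against 1254 to 7978 CPM in the controls. Endothelial markers were called lower for 8 of 10 against WT and 8 of 10 against CreCtrl, with sums of 31.2 to 154 CPM in KO and 136 to 763 CPM in controls. Col1a1 (-4.58), Dcn (-4.58) and Col1a2 (-4.55) of fibroblasts, and Vwf (-4.19), Emcn (-3.18) and Cdh5 (-3.06) of endothelium, were the lowest against WT. The 10 mural genes summed to 317 to 521 CPM in KO and 618 to 2646 CPM in controls. RPE markers were called higher for 8 of 10 against WT and 1 of 10 against CreCtrl (Lrat, 1.26), and Lrat (2.71), Rgr (2.20) and Ttr (1.91) were the highest against WT. RPE markers summed to 69800.4 to 80025 CPM in KO. Best1, whose promoter drives Cre, went the other way and was called lower over the 3 sets (-1.04, SE 0.38, adjusted p = 0.0411 from edgeR), at 3.28 to 5.94 CPM in WT against 1.22 to 1.54 CPM in KO, at 1.19 to 2.96 against 1.57 to 2.80 CPM in the Ctrl set and at 2.61 to 3.24 against 1.32 to 1.45 CPM in the CreCtrl set.

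Myeloid markers were called lower for 9 of 10 against WT and 8 of 10 against CreCtrl, with Mrc1 (-5.07), Aif1 (-4.11) and Tyrobp (-4.04) lowest. Their sums overlapped between KO (753 to 1292 CPM) and controls (623 to 1558 CPM), and Csf1r, not called lower against WT, made up most of each KO sum, at 695 to 836 CPM in KO and 450 to 614 CPM in controls. Against Ctrl the myeloid markers did not move with the mural genes, with a median log2 fold change of 0.20 against -3.54. There Mrc1 was at -0.41, Aif1 at 0.36 and Tyrobp at 0.16. Of 8 Schwann cell markers, 4 of the 7 tested were called lower (the lowest being S100b -3.89, Egr2 -2.99 and Prx -2.91) and 1 higher (Sox10 1.21) against WT, with sums of 876 to 1204 CPM in KO and 701 to 927 CPM in controls. Sox10 (435 to 758 CPM in KO, 173 to 455 CPM in controls) and Pmp22 (247 to 352 and 217 to 345 CPM) carried most of these sums. The 14.3% of Schwann cell markers called higher are near the 14.1% of all genes. Of 8 rod markers 1 was called higher against WT (Rom1 2.12) and 7 lower against CreCtrl, and their sums ran from 59.3 to 4528 CPM in controls and from 399 to 2007 CPM in KO. The 12.5% of rod markers called higher against WT are near the 14.1% of all genes. Skeletal muscle, which also expresses Des, was nearly absent: of its 8 markers none was at 1 CPM in every library, their sum was 3.48 to 21.8 CPM, and Tnnt3 was the 1 called, lower (-4.29), of 5 tested against WT (20%, beside 17.6% of all genes). The part of these cell types in the mural results was not tested.

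**Figure D5:**
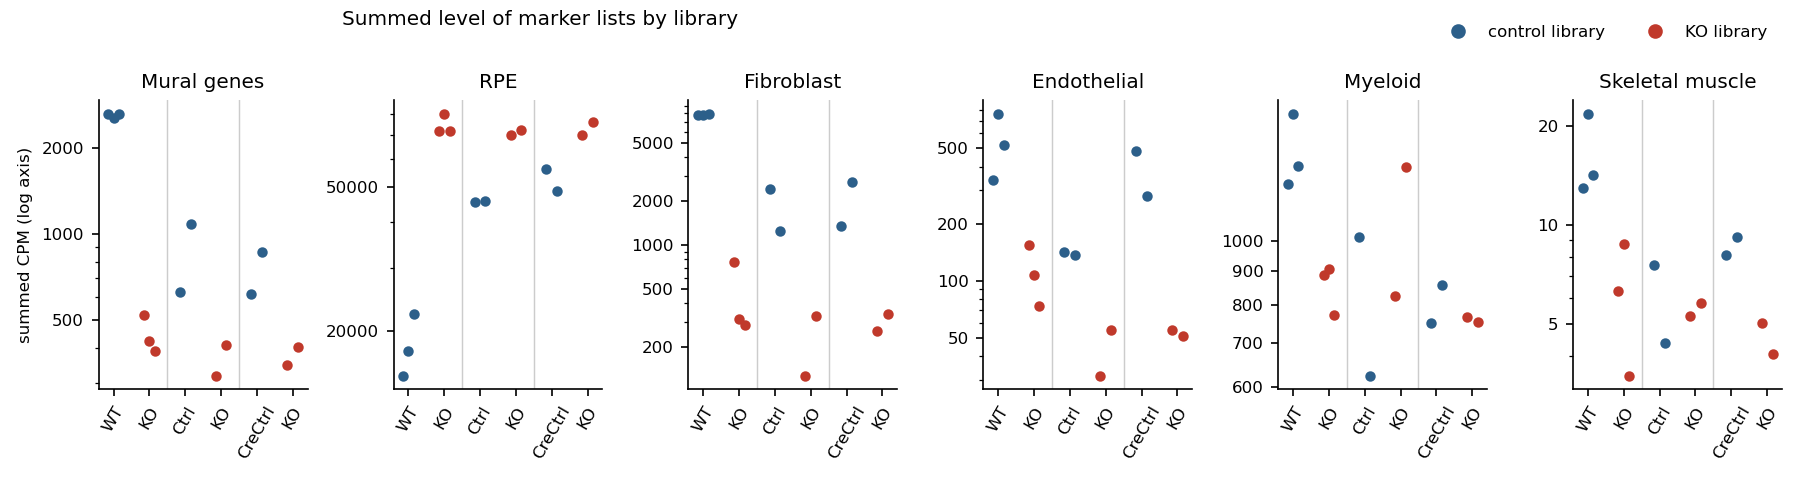
Summed CPM of the 10 mural genes and of 5 lists of markers in each library, on log axes whose range differs between panels, with controls in blue, KO in red and grey lines between the WT, Ctrl and CreCtrl sets. Fibroblast sums are 1254 to 7978 CPM in controls and 127 to 763 CPM in KO, and RPE sums are 15026 to 56208 CPM in controls and 69800.4 to 80025 CPM in KO.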

How the data were processed

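RPE was detached from RPE-choroid-sclera cups with hyaluronidase and trypsin, and poly(A) libraries were made with a stranded TruSeq kit and sequenced paired-end. The authors deposited 1 table of raw counts per gene for the 14 libraries, mapped with STAR 2.5.2 to GRCm38 per the labels, and the submitters' processing notes also name bcl2fastq 2.19, Cufflinks 2.1.1 and HTSeq 0.11.2. The counter, its strand setting and the annotation are not given in the sources used here. GENCODE M21 named 42250 of the 42687 genes.

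Counts were fitted in R 4.3.3 with edgeR 4.0.16 (TMM, filterByExpr, quasi-likelihood, adjustment by Benjamini-Hochberg), each set alone, the 3 sets with set as a term, and all 6 groups for differences between sets (called at an adjusted p under 0.05 with no fold limit). The SE is the absolute log2 fold change over the square root of F. Alternatives were DESeq2 1.42.0, other scaling and filters, a replicate block and leaving out libraries. The floor is 3 counts per library, and counting intervals cover counting error only. The script was tested on simulated counts. Tables were made in Python 3.11.15 with scipy 1.17.1. The members, lists and tests were chosen with earlier results of these data known, and support nothing independently. All members are named, and from each other list up to 3 called genes in each direction against WT, and for 4 members the 3 genes of nearest course. Other names were chosen after their values were seen. Samples were grouped by their labels, and KO mice to sets by the form of their titles.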

Additional observations from a re-analysis of the deposited data

Results flagged for a closer look

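Among the 7 KO libraries, the highest Mylk level was that of replicate 1 in the WT set, 26.6 CPM, its gap to the next library being 0.938 of the whole range. The same library stood apart for Des, at 2.72 CPM, with a gap of 0.743 of the range. Both pass Dixon's 95% critical value of 0.568 for 7 libraries, which chance passes in about 1 of 20 groups, and 10 groups were tested. The log2 fold change of Pdgfrb differed between the WT and the Ctrl set by -2.06 (edgeR, adjusted p = 0.0210), where 5.15% of all genes were called. Its KO libraries lay at 33.9 to 46.7 CPM in the WT set and 27.6 to 44.6 CPM in the Ctrl set. The controls lay at 241 to 421 and 50.7 to 92.0 CPM. The call depended on single libraries, as given above.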

How the results depend on the processing

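Of the counts of mural genes called, 7 against WT was 5 to 7 when a library was left out, where 4230 to 4640 of all genes were called. It became 4 with the filter of 10 counts in each library, where 4525 of 12205 genes were called. Tagln, Cnn1 and Des do not pass that filter in the WT set and were not tested with it. Against Ctrl the count of 0 became 6 with DESeq2, 7 when every gene with a count was tested, 4 in a fit of all 14 libraries, and 0 to 4 when a library was left out. Against CreCtrl 6 became 3 in the fit of all 14 libraries. The genes called there changed when a library was left out, as given above for Notch3, Des, Myh11 and Acta2. Over the 3 sets the count of 7 ran from 5 to 8 under all alternatives. For the difference between the WT and Ctrl sets 1 became 2 with DESeq2, 4 with every gene with a count, 2 with that filter, and 0 to 2 when a library was left out. Between the WT and CreCtrl sets 0 became 1 with DESeq2, 5 with every gene with a count, 1 with that filter, and 0 to 1 when a library was left out. Between the Ctrl and CreCtrl sets 0 became 2 with every gene with a count. The causes were not tested.

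Directions turned for Cspg4 with library size alone (-0.11 against WT and -0.089 against CreCtrl) and when a library was left out (-0.010 to 0.30 against CreCtrl), and for Acta2 against Ctrl when a library was left out (-0.58 to 0.75). The Acta2 to Tagln difference was 3.75 with a pseudocount of 2 CPM.

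The replicate numbers are shared between groups, but did not pair the samples: same-numbered libraries of the WT set correlated at -0.019, 0.070 and 0.18, those of the Ctrl set at -0.0062 and of the CreCtrl set at 0.13, and not every library correlated best with its own number. With the replicate block the counts were 5 against WT (4543 of all 15428 genes tested) and 1 against Ctrl (113 of 15287). They were 8 against CreCtrl (3762 of 15963) and 6 over the 3 sets (3870 of 14925). For the difference between the WT and Ctrl sets the count was 0 (445 of 17662). Acta2 against Ctrl was then 0.077, and the Acta2 to Tagln difference 4.53 (exact permutation p = 0.0156, the smallest that 128 arrangements can give).

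Over all genes, 0 calls against Ctrl became 1111 with DESeq2, 1658 with every gene with a count, 113 with the block and 647 in the fit of all 14 libraries, and 2498 against CreCtrl became 4287, 3762 and 703 under the last 3. Between the WT and Ctrl sets 909 became 1630 with DESeq2, 596 with RLE scaling, 547 with library size alone, 2262 with every gene with a count and 445 with the block. With the filter of 10 counts it became 1003 of the 11824 genes left. Between the WT and CreCtrl sets 264 became 901, 1102 and 34 with DESeq2, every gene with a count and the block, and 524 with the filter of 10 counts. Between the Ctrl and CreCtrl sets 0 became 883 with every gene with a count and 22 with the block. Depth limits Cnn1, Des, Tagln and Myh11 in the KO libraries: 3 counts are 0.104 to 0.258 CPM over the 14 libraries.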
